A study of Homo sapiens with 6 samples.

Results

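Immune checkpoint ligands are cell-surface or secreted proteins through which a tumour cell restrains T cells, natural killer cells and macrophages, and IDO1 is an enzyme that does so by consuming tryptophan. Transcripts of 10 such genes were followed here among the 61487 gene IDs of the count table: CD274, PDCD1LG2, IDO1, NT5E, PVR, NECTIN2, CD276, TNFRSF14, LGALS9 and CD47. The members were chosen by name, and each name matched 1 Ensembl ID. The libraries are labelled H2170, an established human lung squamous carcinoma line grown in DMEM with serum, with 2 libraries per group. WT cells expressed wild-type ACK1 fused to GFP, IDRmut cells expressed the ACK1 form labelled IDRmut fused to GFP, and Control cells expressed GFP alone. ACK1 is the non-receptor tyrosine kinase encoded by TNK2, and the study concerns its condensates and STAT5 activation. For the construct promoter and whether the cells were clones or pools, nothing is given in the sources used here.

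PD-L1 (CD274) and PD-L2 (PDCD1LG2) bind the T cell receptor PD-1 and dampen T cell activity. Their transcription is known to be raised by interferons through the factor IRF1, and IDO1 is a classical target of interferon gamma. CD73 (NT5E) makes adenosine from AMP, CD155 (PVR) and CD112 (NECTIN2) engage TIGIT and other receptors of T and natural killer cells, and CD47 tells macrophages not to engulf a cell by binding SIRPA.

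Total counts ran from 19128111 to 33540998 per library, with the second WT library the deepest. The check of the labels was TNK2, which had 3514 and 3613 CPM (counts scaled to library size) in WT, 1762 and 1455 CPM in IDRmut, and 41.1 and 43.1 CPM in Control. The ACK1 transcript thus also differed between WT and IDRmut, 2.22-fold higher in WT in the fit, and its part in any difference between those groups was not tested. The 6 squamous markers summed to 949 to 975 CPM in WT, 1361 to 1483 CPM in IDRmut and 1847 to 1855 CPM in Control. All 6 were lower in WT relative to IDRmut, beside 12.3% of all tested genes. Relative to Control, 2 rose and 3 fell in WT, and 4 rose and 2 fell in IDRmut. Over all tested genes, 17.4% were called higher and 17.6% lower in WT over Control, and 15.6% and 15.9% in IDRmut over Control. KRT14, the most abundant of them, averaged 622 ± 20.2 CPM in WT, 940 ± 74.7 CPM in IDRmut and 1424 ± 13.9 CPM in Control (SD, n = 2). The 5 epithelial markers summed to 39.5 to 40.3 CPM in WT, 76.8 to 85.6 CPM in IDRmut and 14.95 to 15.98 CPM in Control. Of these, KRT8 and KRT18 rose in both arms, KRT19 fell in WT, and EPCAM and CDH1 had at most 4 counts in any library. The 5 fibroblast markers summed to 668 to 676 CPM in WT, 852 to 912 CPM in IDRmut and 821 to 839 CPM in Control, nearly all of it COL1A2, which fell in WT, while COL1A1 was called higher in both arms and DCN and LUM had at most 5 counts in any library. The 5 endothelial markers summed to 51.0 to 53.0 CPM in WT, 99.0 to 102 CPM in IDRmut and 219 to 226 CPM in Control. Of these, CDH5 fell in both arms, TEK rose in both arms, KDR fell in IDRmut, and PECAM1 had at most 7 counts in any library. EPCAM and CDH1 were thus near 0 and COL1A2 and CDH5 well detected in every library. KRT14 was abundant in every group, and DCN, LUM and PECAM1 had few counts. These markers do not settle the labelled identity of the line, which was not tested. The part of these marker differences in those of the members was not tested either. CD3D, CD3E and CD2 had 0 counts in every library, the 5 T cell markers summed to between 0.101 and 0.392 CPM, and the 6 leukocyte and myeloid markers summed to between 0.507 and 1.35 CPM. In bulk RNA, fewer cells making a transcript and less of it per cell cannot be told apart.

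WT cells had more PD-L1, PD-L2, IDO1, CD73, CD155 and HVEM (TNFRSF14) transcript than Control cells, and IDRmut cells shared the rise in CD155 and HVEM. The HVEM rise rested on low counts, and DESeq2 called it in neither arm. By edgeR's quasi-likelihood test across 16591 genes, adjusted by the Benjamini-Hochberg method and called under 0.05, 6 of the 10 members rose in WT relative to Control and 0 fell. Of all tested genes, 35% were called in that comparison, 17.4% higher and 17.6% lower. At an unadjusted p under 0.05 the count of falls was also 0, and DESeq2 called 0 as well. Relative to Control, 3 members rose in IDRmut and 1 fell, beside 31.6% of all tested genes called, 15.6% higher and 15.9% lower. Between the ACK1 forms, 5 members were higher and 1 was lower in WT, beside 26.5% of all tested genes called, 14.2% higher and 12.3% lower. Both WT libraries were above both Control libraries for 8 members and below for 1, which held for 34.6% and 34.7% of all tested genes. Both IDRmut libraries were above both Control libraries for 4 members and below for 2, beside 32% and 31.3% of genes, and both WT libraries were above both IDRmut libraries for 5 and below for 2, beside 31.4% and 30.1%. All 10 members passed the filter on low counts, IDO1 through its WT libraries alone, so that its call in WT follows in part from the filter. The comparisons with Control share the Control libraries and are not independent of each other.

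**Figure D1:**
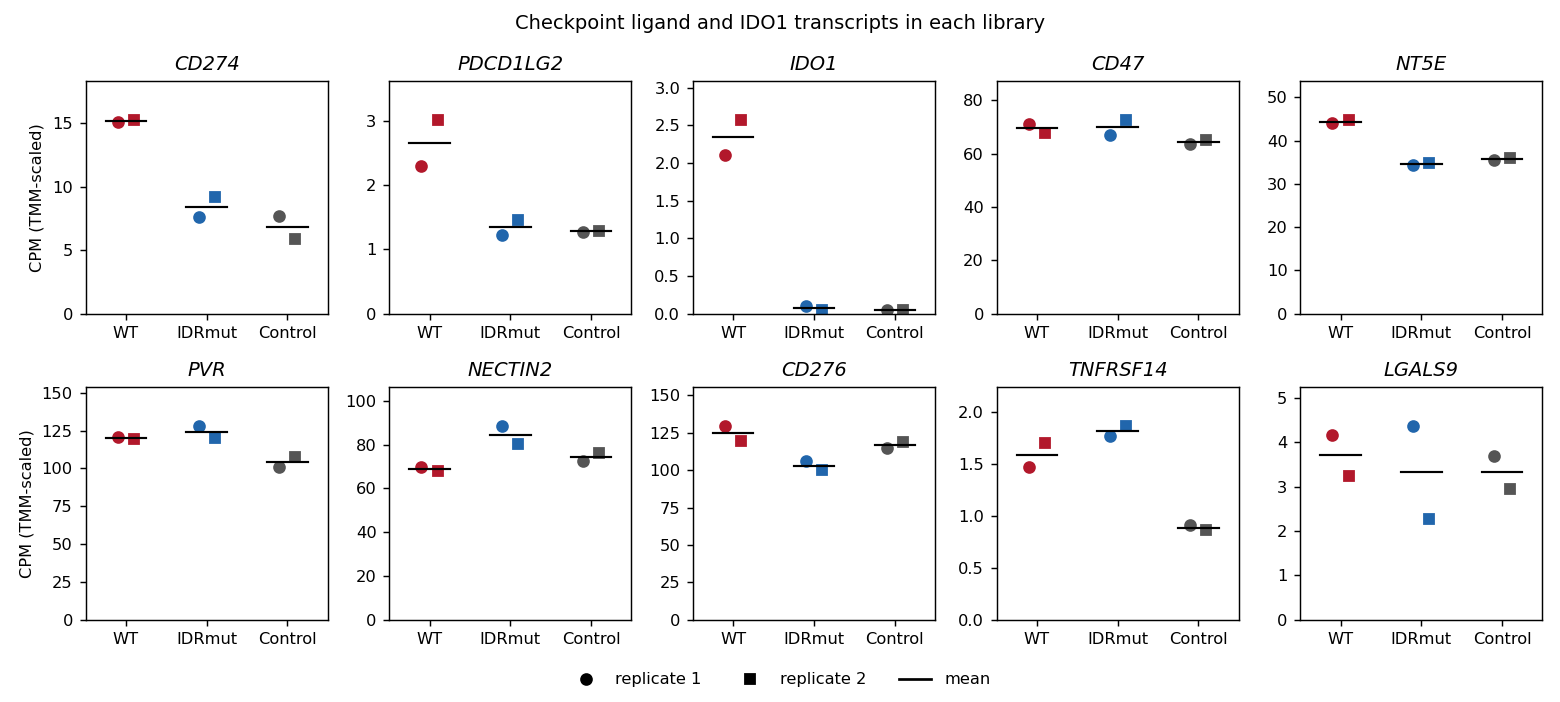
Level of each member in every library, as CPM of the TMM-scaled library on a linear axis from 0; circles and squares are replicates 1 and 2 and lines are group means. CD274, PDCD1LG2, IDO1 and NT5E stand highest in WT, while PVR and TNFRSF14 stand above Control in both WT and IDRmut.

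**Figure D2:**
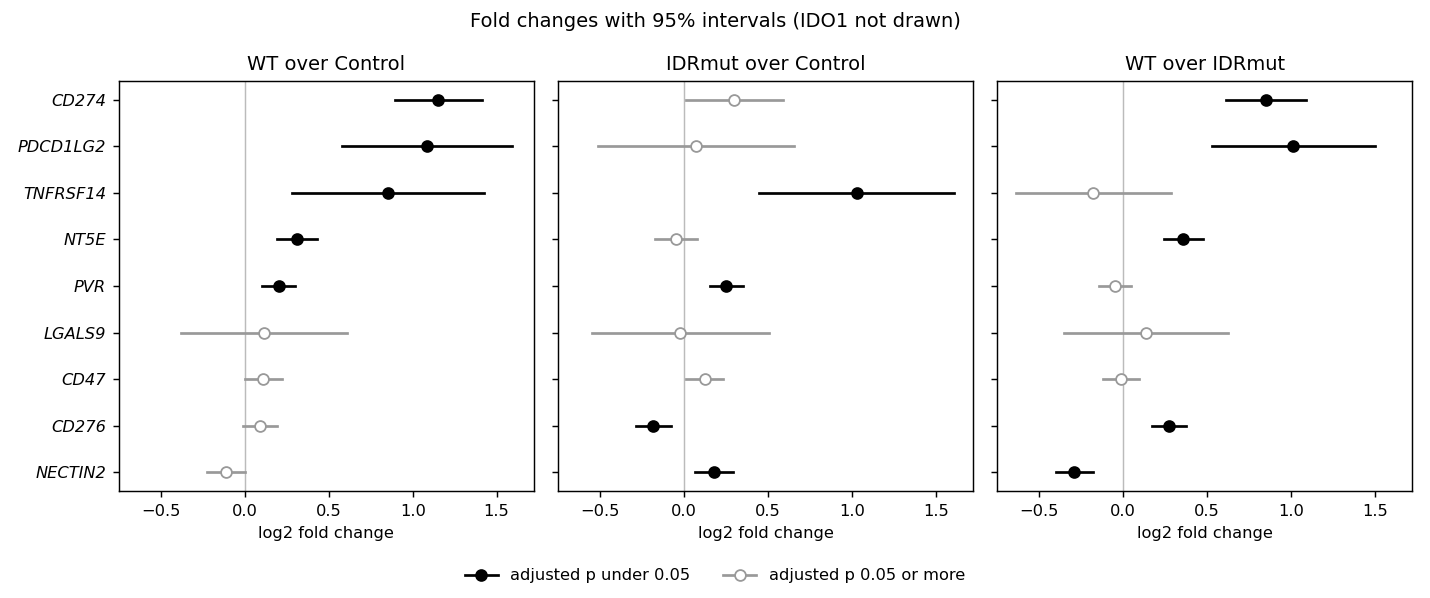
Log2 fold changes with 95% intervals from the fit for 9 members in the 3 comparisons; filled points have an adjusted p under 0.05. IDO1 is left out because Control and IDRmut had 2 and 3 counts over the group. CD274 and PDCD1LG2 lie near 1 in WT over Control and near 1 in WT over IDRmut.

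CD274 lies on chromosome 9 from 5450503 to 5470566 (GRCh38, plus strand; ENSG00000120217), and no other annotated exon overlaps its exons. It had 15.1 and 15.3 CPM in WT, 7.61 and 9.19 CPM in IDRmut, and 7.71 and 5.92 CPM in Control. Both WT libraries were above all 4 others, and IDRmut and Control overlapped. The log2 fold change was 1.15 ± 0.12 (SE) for WT over Control, a 2.22-fold difference with an adjusted p of 7.3e-07. WT exceeded IDRmut by 0.85 ± 0.11, with an adjusted p of 2.1e-05. For IDRmut over Control the value was 0.30 ± 0.14, with a 95% interval of 0.01 to 0.59 and an adjusted p of 0.10. That difference passed the threshold without Control replicate 1 (0.51, adjusted p 0.039) and without ACK1 IDRmut replicate 1 (0.42, adjusted p 0.021).

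The stretch before the CD274 start is shown because it holds the element types through which interferon-regulated factors are known to act. It was read from RefSeq's promoter table (GRCh38.p14). Promoters of 8 of the 10 members were searched, and those of PDCD1LG2 and IDO1 were not. Capitals mark 2 overlapping matches to the core of the interferon-stimulated response element (ISRE, searched as GAAA, any 2 bases and GAAA) and 1 match to the gamma-activated site bound by STAT factors (GAS, searched as TTCNNNGAA), each searched on both strands.
CD274, chr9:5450292-5450491, plus strand, 250 to 51 bases before the start: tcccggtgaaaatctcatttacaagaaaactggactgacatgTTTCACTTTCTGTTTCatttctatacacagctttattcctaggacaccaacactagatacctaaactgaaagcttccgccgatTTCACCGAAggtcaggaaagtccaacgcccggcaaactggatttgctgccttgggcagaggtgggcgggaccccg
The ISRE run covers bases 208 to 193 before the start, on the minus strand as read here, and the GAS match covers bases 125 to 117. These positions count back from the RefSeq start, just past 5450541, and not from the gene start of 5450503 given above. In the same 250-base window, 3.02% of 35116 promoters hold the ISRE core, 6.57% hold the GAS and 0.31% hold both. CD274 was the single member of the 8 searched with any match, including to the AP-1 motif (TGANTCA, held by 6.57%). Whether PDCD1LG2 and IDO1 hold such matches was not tested. A match is a run of letters and was not tested for binding.

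PDCD1LG2 starts 60.1 kb downstream of CD274 on the same strand (chromosome 9, 5510570 to 5571254; ENSG00000197646). Its level was 2.30 and 3.01 CPM in WT, 1.23 and 1.46 CPM in IDRmut, and 1.27 and 1.29 CPM in Control. Both WT libraries lay above the rest, as with CD274. Relative to Control, the log2 fold change of PDCD1LG2 was 1.09 ± 0.24 in WT (adjusted p 0.0013) and 0.07 ± 0.28 in IDRmut (adjusted p 0.87). WT exceeded IDRmut by 1.01 ± 0.23 (adjusted p 0.0024). This last difference had an adjusted p of 0.051 by DESeq2 and 0.087 without ACK1 WT replicate 2, and the gene's counts ran from 24 to 103 per library.

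None of the tested genes around this pair was called higher. The window from 500 kb before CD274 to 500 kb after it overlapped 32 genes of the table, of which 8 were tested. Relative to Control in WT, 0 of the 6 other tested genes rose, also at an unadjusted p under 0.05 and by DESeq2. The 4 that fell were JAK2, the kinase below the interferon receptors (adjusted p 0.046), RIC1, ERMP1 and KIAA2026. Of all tested genes, 17.4% were called higher and 17.6% lower in that comparison, and 6 genes are too few to tell 0 rises from that share. DESeq2 called 2 falls. JAK2 stood at 18.2 ± 0.131 CPM in WT, 18.4 ± 1.01 CPM in IDRmut and 21.3 ± 2.37 CPM in Control (SD, n = 2). PLGRKT, which starts 12.6 kb before CD274 on the other strand, had 0.10 ± 0.08 in WT over Control with an adjusted p of 0.36. MLANA, the remaining neighbour, had 0.70 ± 0.36 with an adjusted p of 0.13.

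**Figure D3:**
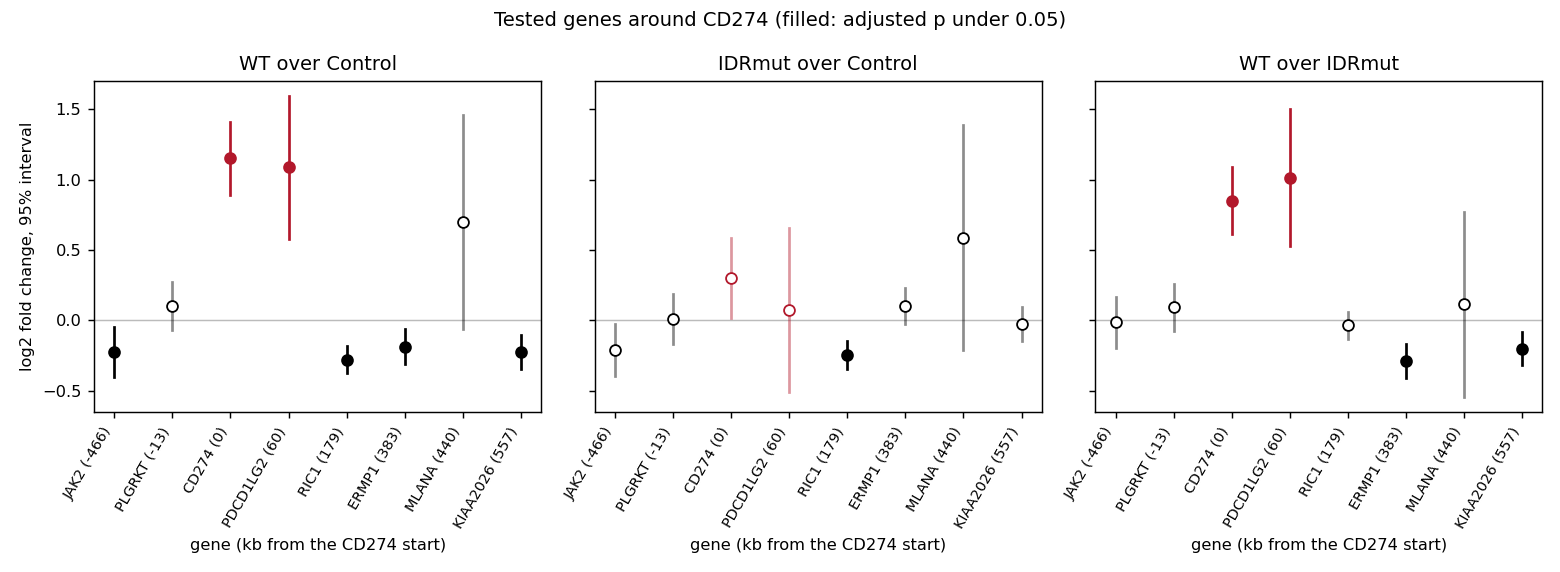
Log2 fold changes with 95% intervals of the 8 tested genes in the window around CD274, ordered by distance of their start in kb; filled points have an adjusted p under 0.05 and red marks the PD-1 ligands. In WT over Control the 2 ligands lie above 1 and 4 of the 6 neighbours lie below 0.

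Control of PD-L1 reaches the transcript through interferon signalling and the protein through partners that protect or destroy it. Of 20 genes listed for this control, all tested, WT showed 7 rises and 2 falls relative to Control, and IDRmut 7 rises and 3 falls. Over all tested genes, 17.4% were called higher and 17.6% lower in WT over Control, and 15.6% and 15.9% in IDRmut over Control. Between the ACK1 forms, 5 of the 20 were higher in WT and 1 was lower, beside 14.2% and 12.3% of all tested genes. The 20 genes had median log2 fold changes of 0.03, 0.02 and 0.05, beside 0.0017, 0.0040 and 0.00068 over all tested genes. IRF9, a subunit of the interferon-stimulated complex that binds the ISRE, rose in WT by 1.56 ± 0.19 and in IDRmut by 1.39 ± 0.20. IRF1 rose in WT by 0.44 ± 0.07 and in IDRmut by 0.57 ± 0.07, with a difference between the forms of -0.13 ± 0.06 (adjusted p 0.13). Among the protein's partners, CMTM6, which keeps PD-L1 from lysosomal breakdown, had 135 ± 0.875 CPM in WT, 113 ± 2.32 CPM in IDRmut and 105 ± 4.46 CPM in Control. It rose in WT by 0.36 ± 0.04 (adjusted p 4.6e-06), and WT exceeded IDRmut by 0.26 ± 0.04 (adjusted p 1.7e-04). Its relative CMTM4 rose in both arms, by 0.29 ± 0.04 in WT and 0.13 ± 0.05 in IDRmut. STAT3 had -0.05 ± 0.04 in WT and rose by 0.38 ± 0.04 in IDRmut, and the difference of -0.43 ± 0.04 had an adjusted p of 8.9e-08.

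IDO1, which converts tryptophan to the kynurenine precursor, was near the limit of detection outside WT. The gene lies on chromosome 8 from 39902275 to 39928444 (GRCh38, plus strand; ENSG00000131203), and 3.68% of its exon bases overlap an antisense gene. It had 43 and 88 counts in WT, 2 and 1 in IDRmut, and 1 and 1 in Control, which is 2.11 and 2.57 CPM in WT, 0.0982 and 0.0455 CPM in IDRmut, and 0.0507 and 0.0538 CPM in Control. The first WT library and the first Control library were of similar depth, 20033289 and 20154935 counts. Over the groups the ratio of IDO1 counts was 46.0 for WT to Control (95% counting interval 12.5 to 383) and 33.9 for WT to IDRmut (11.3 to 166), intervals that cover counting error and no other source. For IDRmut to Control the ratio was 1.36 (0.155 to 16.2), which the counts cannot narrow. The adjusted p of the fit were 1.2e-07 for WT over Control and 2.1e-07 for WT over IDRmut. IDO1 passed the filter through its WT libraries alone, so that both calls follow in part from the filter. DESeq2 gave no adjusted p for WT over IDRmut. IDO2, the neighbouring relative of IDO1, had at most 1 count in any library.

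The rest of the tryptophan pathway included rises in transport and charging. Of 18 listed genes, 9 were tested. Relative to Control, WT showed 4 rises and 2 falls, and IDRmut 5 rises and 0 falls (0 also at an unadjusted p under 0.05 and by DESeq2). The rises in WT include KMO, which passed the filter through WT and IDRmut alone. Those in IDRmut include TDO2, which passed through IDRmut alone, so that both calls follow in part from the filter. WT exceeded IDRmut for 3 of the genes and lay below it for 4. Over all tested genes, 17.4% were called higher and 17.6% lower in WT over Control, and 15.6% and 15.9% in IDRmut over Control. In WT over IDRmut these shares were 14.2% and 12.3%. SLC7A5, the light chain of the transporter that imports tryptophan and other large amino acids, had 381 ± 8.35 CPM in WT, 261 ± 16.9 CPM in IDRmut and 187 ± 3.07 CPM in Control (SD, n = 2). Its heavy chain SLC3A2 rose in WT by 0.78 ± 0.05 and in IDRmut by 0.47 ± 0.05. WARS1, the tryptophanyl-tRNA synthetase and itself interferon-inducible, rose in WT by 1.18 ± 0.05 and in IDRmut by 0.53 ± 0.05. All 3 were higher in WT than in IDRmut, with adjusted p from 1.1e-08 to 5.4e-05. Kynureninase (KYNU), which breaks kynurenine down further, had 1.75 ± 0.289 CPM in WT, 8.19 ± 1.09 CPM in IDRmut and 2.53 ± 0.302 CPM in Control (SD, n = 2). WT lay below IDRmut, with a log2 fold change of -2.26 ± 0.18 (adjusted p 2.8e-08) and IDRmut exceeded Control by 1.69 ± 0.18 (adjusted p 5.6e-07). In WT over Control it had -0.56 ± 0.22 with an adjusted p of 0.051. KYAT3, which makes kynurenic acid, fell in WT by -0.26 ± 0.07 and had -0.04 ± 0.07 in IDRmut. The kynurenine receptor AHR had at most 4 counts in any library.

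NT5E, the ectonucleotidase CD73 on chromosome 6 (85449584 to 85495791, plus strand; ENSG00000135318), was higher in WT than in both other groups. It had 44.0 and 44.8 CPM in WT, 34.5 and 34.9 CPM in IDRmut, and 35.6 and 36.1 CPM in Control. The WT libraries lay above all others, and both IDRmut libraries lay slightly below both Control libraries. WT exceeded Control by 0.31 ± 0.06 on the log2 scale (adjusted p 2.7e-04) and IDRmut by 0.36 ± 0.05 (adjusted p 9.8e-05). IDRmut over Control was -0.05 ± 0.06, with a 95% interval of -0.17 to 0.08.

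Of 13 further genes of adenosine metabolism and sensing, 9 were tested. Relative to Control, WT showed 4 rises and 1 fall, and IDRmut 3 rises and 2 falls. WT exceeded IDRmut for 3 of the genes and lay below it for 3. Over all tested genes, 17.4% were called higher and 17.6% lower in WT over Control, and 15.6% and 15.9% in IDRmut over Control. In WT over IDRmut these shares were 14.2% and 12.3%. ENTPD1 (CD39), which makes the AMP that CD73 consumes, was lower in WT, at 10.7 ± 0.136 CPM, against 14.6 ± 0.814 CPM in IDRmut and 14.4 ± 0.474 CPM in Control (SD, n = 2). Its fall of -0.43 ± 0.09 in WT over Control had an adjusted p of 0.0012. Adenosine deaminase (ADA), which removes adenosine, rose in WT by 1.12 ± 0.19 and in IDRmut by 1.46 ± 0.19. The receptor gene ADORA2B rose in WT by 0.26 ± 0.05 and in IDRmut by 0.42 ± 0.05. CD38, a further source of adenosine precursors, had 0.27 ± 0.22 in WT and rose by 1.00 ± 0.21 in IDRmut, and the kinase ADK, which turns adenosine back into AMP, was higher in WT relative to IDRmut by 0.31 ± 0.05 (adjusted p 3.0e-04). The nucleoside transporter SLC29A1 rose in WT by 0.32 ± 0.07 and had -0.01 ± 0.08 in IDRmut, and the difference between WT and IDRmut of 0.33 ± 0.07 had an adjusted p of 0.0026. ENPP1, which makes AMP from ATP, fell in IDRmut by -0.80 ± 0.10 while WT exceeded IDRmut by 0.66 ± 0.09 (adjusted p 4.2e-05).

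PVR and NECTIN2 are both ligands of TIGIT and CD226, while CD96 binds PVR and PVRIG binds NECTIN2, and the genes lie near each other on chromosome 19, PVR from 44643798 to 44663583 (ENSG00000073008) and NECTIN2 from 44846175 to 44889228 (ENSG00000130202), both on the plus strand. PVR had 120.4 and 119.3 CPM in WT, 128.0 and 120.0 CPM in IDRmut, and 101.0 and 107.3 CPM in Control. All 4 ACK1 libraries were above both Control libraries, and WT and IDRmut overlapped. It rose in WT by 0.20 ± 0.05 (adjusted p 0.0024) and in IDRmut by 0.25 ± 0.05 (adjusted p 5.0e-04). The difference between the ACK1 forms was -0.05 ± 0.04 with a 95% interval of -0.14 to 0.05. Without Control replicate 1 the WT rise was 0.16 with an adjusted p of 0.070. Exons of CEACAM19 overlap 3.44% of the PVR exon bases, and that gene had 51 to 140 counts per library.

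NECTIN2 had 70.0 and 68.1 CPM in WT, 88.6 and 80.1 CPM in IDRmut, and 72.7 and 76.3 CPM in Control. The groups did not overlap, with IDRmut highest and WT lowest. The difference between WT and IDRmut was -0.29 ± 0.05, with an adjusted p of 4.9e-04. IDRmut over Control was 0.18 ± 0.05 with an adjusted p of 0.018, a call lost with DESeq2 (adjusted p 0.069), without Control replicate 1 (0.14, adjusted p 0.18) and without ACK1 IDRmut replicate 1 (0.10, adjusted p 0.12). WT over Control was -0.11 ± 0.05 with an adjusted p of 0.12, and it passed at 0.034 when IDRmut was kept out of the fit. The relative NECTIN1 fell in both arms, with 192 ± 1.79 CPM in WT, 259 ± 15.1 CPM in IDRmut and 350 ± 5.71 CPM in Control (SD, n = 2). WT was lower than IDRmut by -0.43 ± 0.04 for NECTIN1, with an adjusted p of 7.7e-07.

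CD276 (B7-H3), a relative of PD-L1 on chromosome 15 (73683966 to 73714518, plus strand; ENSG00000103855), was lower in IDRmut than in the other groups. It had 129.5 and 119.5 CPM in WT, 105.9 and 99.7 CPM in IDRmut, and 115.0 and 118.4 CPM in Control. WT exceeded IDRmut by 0.27 ± 0.05 (adjusted p 3.8e-04), and IDRmut was below Control by -0.18 ± 0.05 (adjusted p 0.0086, and 0.085 without Control replicate 2). WT over Control was 0.09 ± 0.05 with an adjusted p of 0.17, or 0.017 when libraries were scaled by their totals.

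TNFRSF14 (HVEM), a receptor-family protein that serves as ligand of the inhibitory receptor BTLA, lies on chromosome 1 from 2555639 to 2565382 (plus strand; ENSG00000157873). It was a low transcript with 30 and 58 counts in WT, 36 and 41 in IDRmut, and 18 and 16 in Control. The levels were 1.47 and 1.70 CPM in WT, 1.77 and 1.86 CPM in IDRmut, and 0.913 and 0.861 CPM in Control. Every ACK1 library was above both Control libraries. The rise was 0.85 ± 0.27 in WT and 1.03 ± 0.27 in IDRmut, with adjusted p of 0.017 and 0.0067. At these counts the calls were fragile: DESeq2 gave adjusted p of 0.18 and 0.093, and leaving out Control replicate 1, Control replicate 2 or ACK1 WT replicate 2 gave 0.0815, 0.10 and 0.17 for WT, while leaving out Control replicate 2 gave 0.054 for IDRmut. The antisense gene TNFRSF14-AS1 overlaps 13.4% of its exon bases and had at most 1 count in any library.

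LGALS9, the secreted lectin galectin-9 (chromosome 17, 27629798 to 27649560, plus strand; ENSG00000168961), showed no difference that exceeded its replicate spread. It had 4.16 and 3.25 CPM in WT, 4.37 and 2.27 CPM in IDRmut, and 3.70 and 2.96 CPM in Control, and all 3 groups overlapped. Relative to Control, adjusted p were 0.75 in WT and 0.96 in IDRmut, and between the ACK1 forms 0.71. The interval for WT over Control, -0.38 to 0.61, leaves room for changes in either direction. Without ACK1 IDRmut replicate 1 WT exceeded IDRmut by 0.66 (adjusted p 0.027). Near-identical copies, LGALS9B and LGALS9C, had 1 to 14 counts per library, so the split of reads among the 3 genes is uncertain.

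CD47 (chromosome 3, 108043094 to 108091862, minus strand; ENSG00000196776) stood slightly above Control in both arms without passing the test. It had 71.2 and 67.9 CPM in WT, 67.1 and 72.7 CPM in IDRmut, and 63.5 and 65.0 CPM in Control. All ACK1 libraries were above both Control libraries, and WT and IDRmut overlapped. Relative to Control, the log2 fold change was 0.11 ± 0.05 in WT (adjusted p 0.11) and 0.12 ± 0.05 in IDRmut (adjusted p 0.091). Both passed under upper-quartile scaling (adjusted p 0.042 for WT and 0.034 for IDRmut) and under scaling by totals (0.014 and 0.026).

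The CD47 receptor gene SIRPA, usually a myeloid and neuronal gene, was detected at a low level in both arms and near 0 in Control. It had 55 and 68 counts in WT, 68 and 61 in IDRmut, and 1 and 1 in Control. The ratio was 43.1 for WT to Control (95% counting interval 11.7 to 360) and 58.3 for IDRmut to Control (15.8 to 487). SIRPA resembles its relative SIRPG, which had 0 to 12 counts per library, so the split of reads between them is uncertain. Of 6 other genes of the CD47 axis, all tested, WT showed 3 rises and 2 falls relative to Control, and IDRmut 3 rises and 1 fall. WT exceeded IDRmut for 1 of them and lay below it for 2. Over all tested genes, 17.4% were called higher and 17.6% lower in WT over Control, and 15.6% and 15.9% in IDRmut over Control. In WT over IDRmut these shares were 14.2% and 12.3%. THBS1, a secreted CD47 ligand, had 2722 ± 28.5 CPM in WT, 2624 ± 34.8 CPM in IDRmut and 1655 ± 5.10 CPM in Control (SD, n = 2). CD24, a further signal that restrains macrophages, rose in WT by 0.84 ± 0.04 and in IDRmut by 0.56 ± 0.04, and B2M, the light chain of HLA class I, rose in WT by 0.37 ± 0.04 and in IDRmut by 0.52 ± 0.04. LRP1, which on macrophages recognises calreticulin, had log2 fold changes of -0.86 ± 0.04 in WT and -0.12 ± 0.04 in IDRmut relative to Control, and of -0.75 ± 0.04 in WT relative to IDRmut (adjusted p 1.5e-09). DESeq2 called no fall of the list in IDRmut. QPCTL, which modifies CD47 for SIRPA binding, had -0.17 ± 0.07 in WT relative to IDRmut with an adjusted p of 0.075.

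Other ligands that T cells and natural killer cells read moved in both directions. Of 20 listed genes, 13 were tested. Relative to Control, WT showed 6 rises and 4 falls, and IDRmut 6 rises and 3 falls. The rises in both arms include CEACAM1, which passed the filter through the WT and IDRmut libraries alone. Those in IDRmut include VTCN1, which passed through the IDRmut libraries alone, so that these calls follow in part from the filter. WT exceeded IDRmut for 3 of these ligands and lay below it for 4. Over all tested genes, 17.4% were called higher and 17.6% lower in WT over Control, and 15.6% and 15.9% in IDRmut over Control. In WT over IDRmut these shares were 14.2% and 12.3%. TNFSF4 (OX40 ligand), a costimulator, rose in WT and fell in IDRmut, with 20.9 ± 0.714 CPM in WT, 9.20 ± 0.303 CPM in IDRmut and 14.2 ± 1.25 CPM in Control (SD, n = 2). The difference between WT and IDRmut was 1.18 ± 0.09, with an adjusted p of 3.7e-08. LGALS3, a relative of galectin-9 and a ligand of LAG3, fell in WT by -0.48 ± 0.04 and rose in IDRmut by 0.16 ± 0.04. NCR3LG1 (B7-H6), which activates natural killer cells, rose in WT by 0.60 ± 0.08 and in IDRmut by 0.61 ± 0.08, and HLA-E, which restrains them, rose in WT by 0.43 ± 0.05 and in IDRmut by 0.51 ± 0.05. VSIR (VISTA) fell in both arms, by -0.28 ± 0.05 in WT and -0.72 ± 0.06 in IDRmut. NECTIN4 had 17 and 23 counts in WT, 36 and 40 in IDRmut, and 5 and 5 in Control, and was called higher in both arms; it passed the filter through the WT and IDRmut libraries alone, so that these calls follow in part from the filter.

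Most receptors for these ligands had too few counts to be tested. Of 14 listed genes, 3 passed the filter: SIRPA through WT and IDRmut alone, LAG3 through Control alone, and CD160. Among the others, CD226 reached 19 counts, SIRPG 12, HAVCR2 10 and CD96 8 in their highest library. CTLA4 had 0 counts and PDCD1, TIGIT and TNFSF14 at most 3 in every library. LAG3 had 13 and 15 counts in WT, 13 and 4 in IDRmut, and 20 and 18 in Control, and its fall in IDRmut of -1.29 ± 0.47 had an adjusted p of 0.037, a call that follows in part from the filter and that DESeq2 did not make. CD160, a receptor of HVEM, averaged 1.46 ± 0.157 CPM in WT, 1.38 ± 0.342 CPM in IDRmut and 1.46 ± 0.161 CPM in Control (SD, n = 2).

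**Figure D4:**
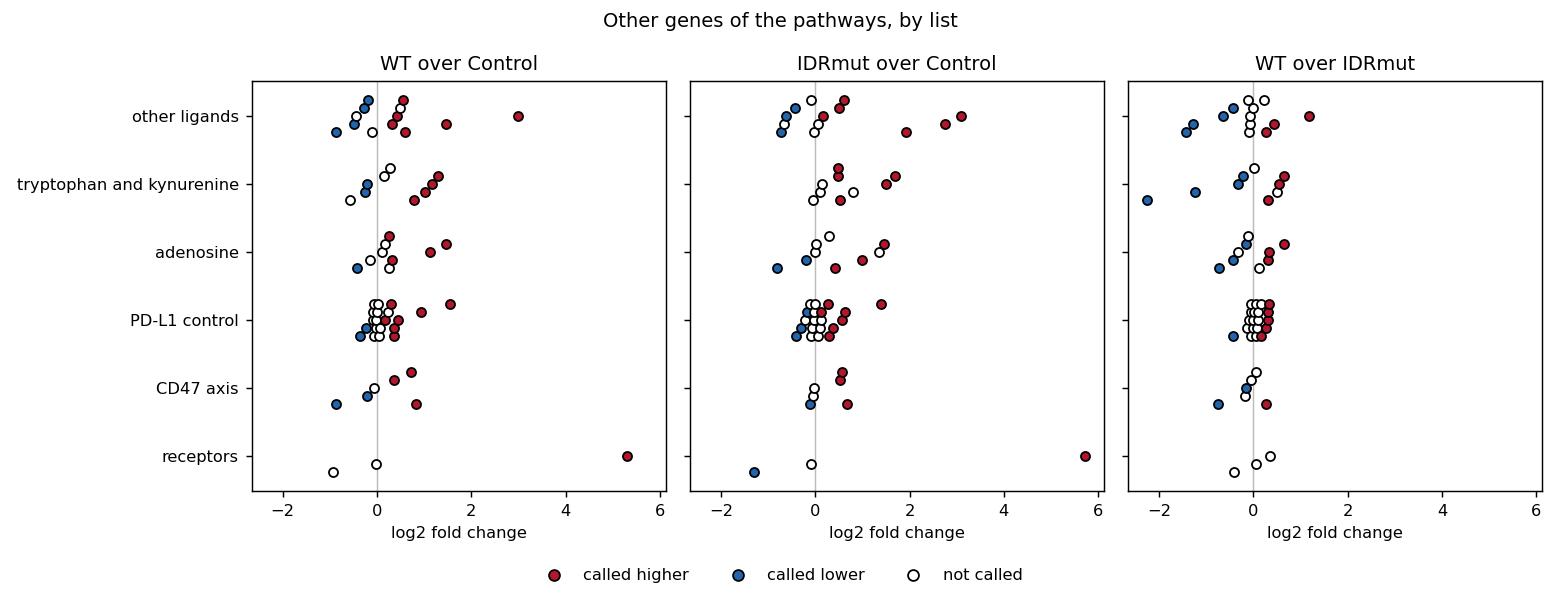
Log2 fold changes of the tested genes of 6 pathway lists in the 3 comparisons; red is called higher, blue called lower and white not called, and vertical offsets separate points. Each list other than the receptors has called genes on both sides of 0 in WT over Control; the receptor point beyond 5 is SIRPA, whose Control counts were 1 and 1.

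Per kilobase of exon, the members spanned more than 3 orders of magnitude in Control. PVR was the highest, with 34.1 ± 0.235 CPM per kb in WT, 35.2 ± 1.62 in IDRmut and 29.6 ± 1.28 in Control (SD, n = 2). CD276 and NECTIN2 came next, at 21.1 ± 0.438 and 19.9 ± 0.675 CPM per kb in Control. Their order was the reverse in IDRmut, at 18.5 ± 0.781 CPM per kb for CD276 and 22.5 ± 1.59 for NECTIN2. NT5E and CD47 did not differ beyond their spread in Control, at 7.90 ± 0.0826 and 7.81 ± 0.135 CPM per kb, and NT5E was above CD47 in WT, at 9.79 ± 0.128 against 8.45 ± 0.285. CD274 stood at 3.69 ± 0.0312 CPM per kb in WT, 2.04 ± 0.271 in IDRmut and 1.66 ± 0.309 in Control, below these 5 genes in every group. LGALS9 and PDCD1LG2 did not differ beyond their spread in Control, at 0.583 ± 0.0922 and 0.541 ± 0.00677 CPM per kb. In WT, PDCD1LG2 reached 1.12 ± 0.212 CPM per kb, below CD274. IDO1 was last in Control, at 0.0160 ± 0.000663, and reached 0.718 ± 0.101 CPM per kb in WT, above TNFRSF14 at 0.255 ± 0.0258.

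**Figure D5:**
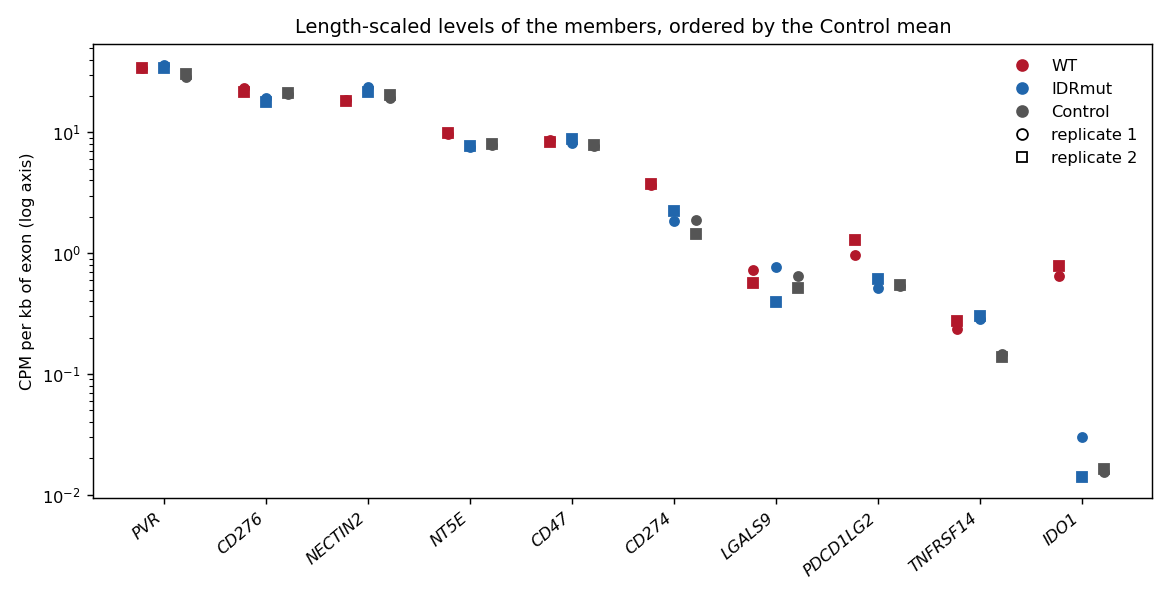
CPM per kb of exon for each member and library on a log axis, with members ordered by their Control mean; colours are groups, and circles and squares are replicates 1 and 2. The IDO1 points of IDRmut and Control rest on 1 or 2 counts each, while the WT points lie above those of TNFRSF14.

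Profiles most like those of CD274 and IDO1 were looked for among 13979 and 13980 other tested genes whose mean reached 1 CPM, by the Euclidean distance between centred log2 CPM over the 6 libraries. That scale adds a small count to every gene, which draws in the profiles of low transcripts. CD274 and IDO1 were the members whose group means spanned at least 1 on it. PDCD1LG2 and TNFRSF14 fell just short, at 0.993 and 0.965. Nearest to CD274 were RCAN2 (distance 0.21), ARHGDIB (0.22) and PCDH10 (0.24), and PCDH10 averaged 39.2 CPM in WT, 23.3 in IDRmut and 18.4 in Control. Nearest to IDO1 was the chemokine gene CXCL8, at a distance of 1.33, with 17.4 CPM in WT, 2.44 in IDRmut and 1.74 in Control. The interferon-induced chemokine gene CXCL10 (2.26) and the noncoding RNA MANCR (2.29) followed, and CXCL10 averaged 2.97 CPM in WT and 0.378 in IDRmut with 0 counts in Control. The distances from IDO1 were longer than those from CD274, so these are looser matches. IDO1 had 1 or 2 counts in each IDRmut and Control library, where its profile rests largely on the added count. Shared regulation was not tested.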

How the data were processed

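Raw counts of 6 libraries came from a table the authors deposited without normalization. HISAT2 2.2.1, featureCounts 2.0.1, SAMtools 1.14 and build GRCh38 are named in the submitters' processing notes; for annotation release and strand setting, nothing is given in the sources used here, so that overlapping genes on either strand could not be separated. Genes were kept by filterByExpr (minimum count 10, minimum total 15), scaled by TMM, and fitted with edgeR 4.0.16 in R 4.3.3 on all 6 libraries, with quasi-likelihood tests adjusted over 16591 genes. Intervals of log2 fold changes use the moderated spread, with 3 residual and 13.5 prior degrees of freedom. Each gene has a single estimate of this spread, shared by the groups. Replicates differed more in IDRmut, with a mean chi-square per gene of 3.74 between them, beside 1.55 in WT and 1.72 in Control. Standard errors and p-values of comparisons with IDRmut may therefore be too small, and those of WT over Control too large. The procedure was run on simulated counts with the same spread in every group. That run cannot show how the calls fare where the spread is larger in IDRmut. Where a listed gene passed the filter through some groups alone, its calls against the other groups follow in part from the filter. CPM use TMM-scaled libraries; exon lengths and positions come from GENCODE 29, which may not be the authors' annotation. DESeq2 1.42.0 served as an alternative. The floor was 3 counts, and the 95% counting intervals of count ratios cover counting error only. The labels do not say that replicates were separate cultures, so p-values measure the spread between these libraries. Named genes are the 10 members, TNK2, up to 4 genes per list and comparison with the smallest adjusted p, and 3 nearest profiles per member whose group means span at least 1 on the log2 scale; others, such as IDO2, AHR, NECTIN4 and the marker and neighbouring genes, were chosen after their values were seen. Members and lists were chosen with earlier results of these data known. The result of 1 listed gene is not reported here.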

Additional observations from a re-analysis of the deposited data

How the results depend on the processing

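Of the 16 member differences that passed the threshold, 10 kept their direction and side under every alternative run that gave an adjusted p, and 0 reversed. These 10 include IDO1 in WT over IDRmut, for which DESeq2 gave no adjusted p. With DESeq2, fewer genes were called: 3649 against 5807 in WT over Control, 3290 against 5237 in IDRmut over Control and 2534 against 4396 in WT over IDRmut. Members called higher by DESeq2 numbered 1 in IDRmut over Control and 3 in WT over IDRmut, where 8 had an adjusted p. Its log2 fold changes were 0.1779 for NECTIN2 and 1.034 for TNFRSF14 in IDRmut over Control, 0.8437 for TNFRSF14 in WT over Control and 0.9965 for PDCD1LG2 in WT over IDRmut, all past the threshold in edgeR only. Of the listed genes in WT over Control, DESeq2 called 0 lower for PD-L1 control and 0 for tryptophan, against 2 and 2 in edgeR.

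Scaling by totals gave 0.1531 for CD276 and 0.1748 for CD47 in WT over Control, 0.1627 for CD47 and 0.01767 for LGALS9 in IDRmut over Control, and 0.01206 for CD47 in WT over IDRmut. Upper-quartile scaling gave 0.1426 for CD47 in WT over Control, and 0.1542 for CD47 and 0.009263 for LGALS9 in IDRmut over Control. The share of called genes that were higher was 49.75% in WT over Control, 58.63% with upper quartiles and 67.15% with totals. In IDRmut over Control it was 49.47%, 60.22% with totals and 58.11% with upper quartiles, and in WT over IDRmut 53.46% and 61.47% with totals. With 2 groups in the fit, WT over Control had 1 member called lower, with -0.1098 for NECTIN2 and 0.1113 for CD47.

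Leaving out 1 library at a time gave 3451 (without Control replicate 1) to 5522 genes called in IDRmut over Control and 2590 (without ACK1 WT replicate 2) to 4761 in WT over IDRmut. Members called lower ranged from 0 to 1 in both comparisons with Control. In WT over Control, values ranged from 0.07882 to 0.1422 for CD47, -0.04086 to 0.312 for LGALS9, -0.1488 to -0.07887 for NECTIN2, 0.156 to 0.2447 for PVR and 0.7178 to 0.9301 for TNFRSF14. In IDRmut over Control, they ranged from 0.1244 to 0.5059 for CD274, -0.2279 to -0.1422 for CD276, 0.06082 to 0.1777 for CD47, -0.1805 to 0.8437 for IDO1, -0.5549 to 0.3856 for LGALS9, 0.1038 to 0.2481 for NECTIN2, -0.06097 to 0.1839 for PDCD1LG2 and 0.9864 to 1.071 for TNFRSF14. In WT over IDRmut, they ranged from -0.07586 to 0.04531 for CD47, -0.2738 to 0.6622 for LGALS9 and 0.7685 to 1.162 for PDCD1LG2. The reversals were -0.06097 for PDCD1LG2 and -0.1805 for IDO1 in IDRmut over Control without ACK1 IDRmut replicates 2 and 1, 0.02127 and 0.04531 for CD47 in WT over IDRmut, and, for LGALS9, 0.1497 and 0.3856 in IDRmut over Control, -0.03569 and -0.04086 in WT over Control, and -0.01757 and -0.2738 in WT over IDRmut. The cause was not tested.

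Replicate numbers were shared between groups, and the labels do not say whether they pair the libraries. Deviations of same-numbered libraries correlated at -0.02 to -0.03, which with 2 libraries per group cannot settle whether they were paired. With the replicate number as a block, 5440, 4836 and 3966 genes were called in WT over Control, IDRmut over Control and WT over IDRmut, and 6, 3 and 5 members were called higher. TNFRSF14 and PDCD1LG2 had 16 to 103 counts per library, and each group had 2 libraries; what limits the calls on these genes was not tested.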
